A study of Homo sapiens with 14 samples.

Results

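The APOBEC3 genes encode a family of cytidine deaminases, and 6 of them were followed here across 14 RNA-seq libraries of A549 and SUM159 cells. The 6 members, APOBEC3B, APOBEC3C, APOBEC3D, APOBEC3F, APOBEC3G and APOBEC3H, were taken by their GENCODE symbols among 60683 gene identifiers counted in every library. A549 is a lung cancer line and SUM159 a triple negative breast cancer line, and the labels name no genetic modification of either. A549 cells were left untreated, or treated for 10 days with 2 µM palbociclib, 0.5 µM indisulam or both drugs, or for 7 days with 0.5 µM PF-06873600. SUM159 cells were left untreated or treated for 7 days with 0.5 µM PF-06873600. Palbociclib inhibits CDK4 and CDK6, PF-06873600 inhibits CDK2 as well, and indisulam is a sulfonamide that brings the splicing factor RBM39 to an E3 ligase for degradation. Each of the 7 groups had 2 libraries, which the series' design text describes as technical duplicates, so p-values measure only the spread between these libraries. When untreated cells were collected was not given in the sources used here.

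APOBEC3 enzymes turn cytosine into uracil in single-stranded DNA. They are part of innate immunity and restrict retroviruses and the movement of retroelements in the genome. APOBEC3B is found mostly in the nucleus and is known in tumours for leaving C-to-T mutations. APOBEC3D, APOBEC3F and APOBEC3G are best known for restricting HIV that lacks the viral protein Vif, APOBEC3C is a small and widely expressed member, and APOBEC3H is a small member that differs between people in its activity. Interferon, NF-kB and the DREAM repressor complex, which silences cell cycle genes in arrested cells, have each been tied to the transcription of family members.

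All 6 genes lie side by side on the plus strand of chromosome 22 (hg38, GENCODE release 44). APOBEC3B (ENSG00000179750) runs from 38982347 to 38992804 and APOBEC3C (ENSG00000244509) from 39014257 to 39020352. APOBEC3D (ENSG00000243811) runs from 39021113 to 39033277 and APOBEC3F (ENSG00000128394) from 39040604 to 39055972. APOBEC3G (ENSG00000239713) runs from 39077067 to 39087743 and APOBEC3H (ENSG00000100298) from 39097224 to 39104067. The genes arose by duplication, and the reads were single-end and 65 bases long. Of the 65-base windows in APOBEC3B exons, 581 of 1448 (40.1%) occurred a second time on chromosome 22, 200 of them in exons of APOBEC3A. The share was 13.2% for APOBEC3D, 10.6% for APOBEC3G, 9.04% for APOBEC3F and 2.09% for APOBEC3C, and no APOBEC3H window was repeated. Reads from repeated windows cannot be placed on 1 gene, and between 8.59% and 10.9% of the reads of a library were set aside for low mapping quality. APOBEC3C and APOBEC3D also overlap a readthrough gene on the same strand, which had 0 counts in every library, and APOBEC3B overlaps an antisense transcript with at most 1 count.

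Of the 6 members, 1 had an entry in the RefSeq promoter table (GRCh38.p14). The stretch just before APOBEC3H, chr22:39096994-39097223 on the plus strand, is shown because APOBEC3H had the largest rise among the members tested in A549:

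APOBEC3H: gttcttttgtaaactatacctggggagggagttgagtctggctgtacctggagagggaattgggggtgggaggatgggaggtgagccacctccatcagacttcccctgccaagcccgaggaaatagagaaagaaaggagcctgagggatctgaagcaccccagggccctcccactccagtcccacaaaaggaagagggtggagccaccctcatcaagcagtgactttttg

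The 300-base window that holds this stretch, ending at 39097293, was searched on both strands for 5 motifs. These were TTTGAA (cell cycle homology region, in 15.2% of 35116 promoters of that length), TTCCCGC (E2F, 6.55%), GGGNNTTCC (NF-kB, 6.58%), GAAANNGAA (interferon-stimulated response element, 8.11%) and TTCNNNGAA (GAS element, 7.66%). None of these strings was present in the APOBEC3H window, so no base is in capitals. The NF-kB string covers sites of its own length only, and longer NF-kB sites were not searched.

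The libraries held 13060374 to 21149256 counts on genes, and levels are given in CPM, the count rescaled by that total to a common depth. At this depth 3 counts, taken as the floor of detection, equal 0.142 to 0.23 CPM. The floor and the intervals on counts below cover counting error only. All 5 epithelial markers had at least 10 counts in every A549 library, whereas none of 5 lung epithelium markers did, with a summed level of 0.733 to 4.25 CPM. In SUM159, 2 of the 5 epithelial markers and 3 of 6 breast markers reached 10 counts in every library, and 5 of 5 mesenchymal markers did so in both lines. Of the 6 breast markers only PGR, a hormone receptor gene, had at most 3 counts in every SUM159 library. PGR also had at most 3 in every A549 library, so it does not set the lines apart. Because APOBEC3 genes are high in lymphoid cells, 8 immune cell markers were examined as well. CD3D, CD3E, MS4A1 and NKG7, which define T, B and NK cells, had at most 3 counts in every library of either line. Of the 8 markers, 1 reached 10 counts in every A549 library. In SUM159, 2 did so, among them PTPRC, whose level is given below.

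APOBEC3C had the highest counted level of the members in every group. Levels were divided by all annotated exon bases, without correction for repeated windows (40.1% for APOBEC3B, 2.09% for APOBEC3C). The APOBEC3B shares below may therefore be too low, by an amount that was not estimated. Per kilobase of exon, its level was 14.9 ± 0.024 CPM (SD, n = 2) in untreated A549 cells and 17.2 ± 0.559 in untreated SUM159 cells. It made up 82.9% to 89.9% of the summed length-scaled level of the 6 members in the A549 groups, and 60.7% and 56.6% in the SUM159 groups. APOBEC3B made up most of the rest in SUM159, with 33.8% ± 2.57 (SD, n = 2) in untreated cells against 9.93% ± 2.19 in untreated A549 cells. The summed level was 18 ± 0.596 CPM per kilobase in untreated A549 cells and 16.6 ± 0.478 with palbociclib. It was 32.9 ± 1.63 with indisulam, 30.7 ± 0.163 with both drugs and 38.2 ± 0.305 with PF-06873600. In SUM159 it was 28.4 ± 1.97 in untreated cells and 51.1 ± 3.1 with PF-06873600. The sum was therefore higher than in untreated cells in every treated group except palbociclib alone, by more than the SD of either group, and no test was run on it. Fewer cells that express a gene and less RNA per cell cannot be told apart in such bulk libraries.

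**Figure D1:**
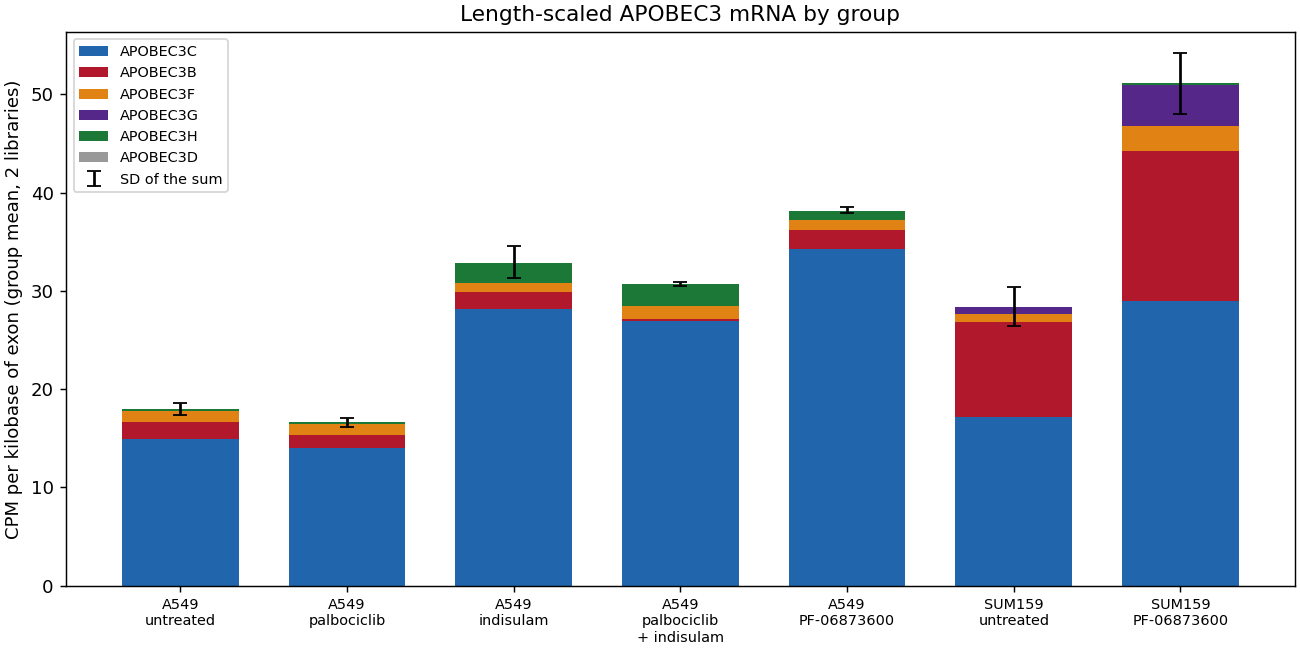
Length-scaled level of the APOBEC3 genes in each group, in CPM per kilobase of exon (y axis), not corrected for repeated windows. Coloured segments are group means of 2 libraries for each gene, whiskers the SD of the sum; APOBEC3C fills most of every bar, and APOBEC3B forms a wide segment in the SUM159 bars only.

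**Figure D2:**
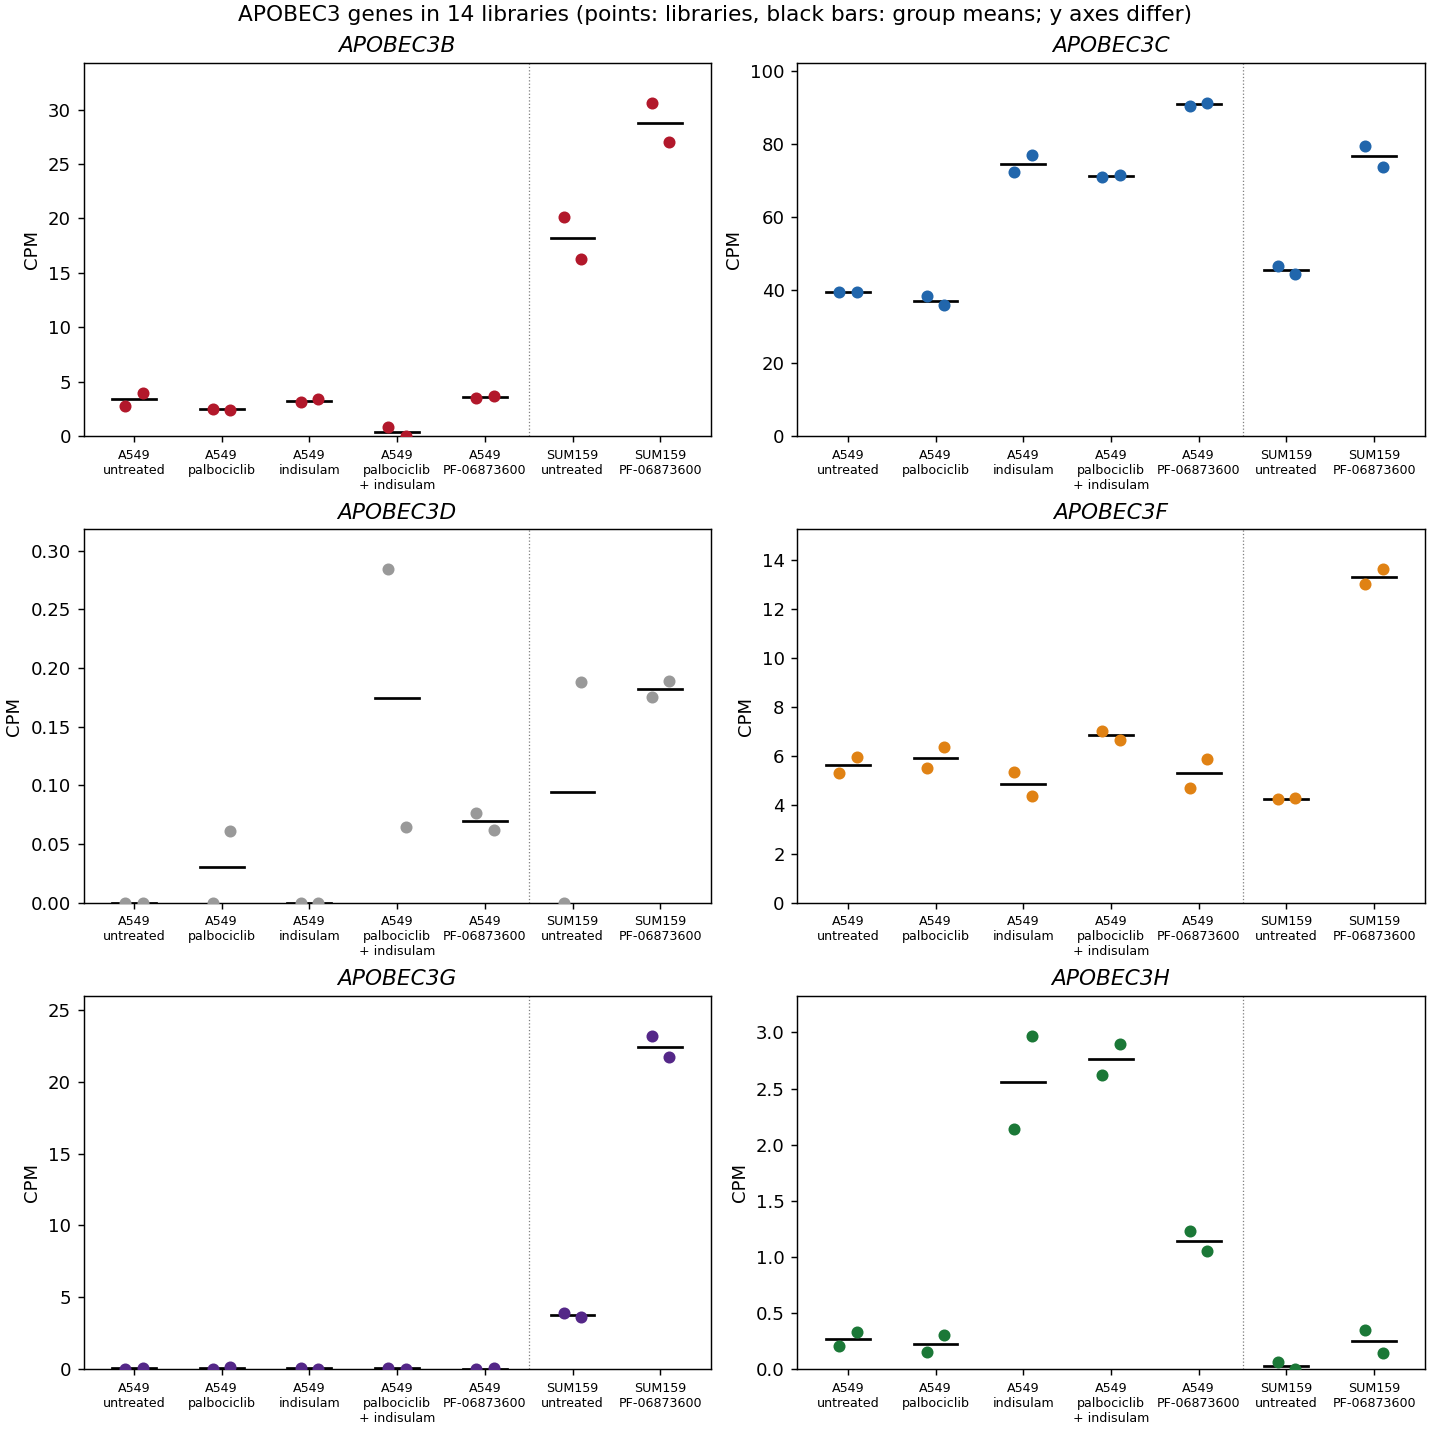
Level of each APOBEC3 gene in CPM (y axes, each starting at 0 with its own range) in the 14 libraries. Points are libraries and black bars group means (n = 2); APOBEC3B falls to 0.851 and 0 CPM in A549 cells given both drugs, and APOBEC3G is above 1 CPM only in SUM159.

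Differences were tested with edgeR's quasi-likelihood test across all genes, and a gene was called at a Benjamini-Hochberg adjusted p under 0.05. Only genes past a filter on low counts were tested, which in A549 were 15780 genes, among them 4 members. APOBEC3H passed it only through the treated groups where it was high, as untreated and palbociclib libraries had 2 to 5 counts. APOBEC3D, with 0 to 4 counts per library, and APOBEC3G, with 0 to 2, were too low to be tested in A549. In SUM159, 15055 genes were tested, among them 4 members, without APOBEC3D and APOBEC3H. The 4 A549 treatments are compared with the same 2 untreated libraries, so their results are not independent of each other.

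APOBEC3B, the nuclear member, was lower in A549 cells given both drugs than in untreated cells or with either drug alone. Untreated cells had counts of 41 and 60. Treated cells had 34 and 39 with palbociclib, 45 and 51 with indisulam, 12 and 0 with both drugs, and 46 and 59 with PF-06873600. Both libraries of the combination lay below the other 8 A549 libraries, and they also differed from each other. The exact Poisson 95% interval was 6.2 to 21 for the library with 12 counts and 0 to 3.69 for the library with none. The mean level was 3.39 ± 0.858 CPM (SD, n = 2) in untreated cells and 0.425 ± 0.602 with both drugs. The log2 fold change against untreated cells was -3.04 ± 0.53 (SE), an 8.22-fold lower level, with an adjusted p of 0.000144. As a ratio of summed counts scaled by depth, untreated cells were 8.4-fold above the combination (95% interval 4.6 to 16.8). Set at the floor of 3 counts, the library with 0 counts would lie 17.6-fold below the untreated mean. Without this library the log2 fold change was -1.99 ± 0.37, with an adjusted p of 0.000629, and without the other combination library only the library at 0 was left.

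APOBEC3B was not called with either drug alone. The log2 fold change against untreated cells was -0.47 ± 0.36 (adjusted p = 0.436) with palbociclib and -0.07 ± 0.35 (adjusted p = 0.891) with indisulam. Against palbociclib alone the combination gave -2.57 ± 0.56 (adjusted p = 0.00116), and against indisulam alone -2.97 ± 0.53 (adjusted p = 0.000371). Without the library at 0 these were -1.51 ± 0.38 (adjusted p = 0.00606) and -1.92 ± 0.37 (adjusted p = 0.0018). The interaction term, which tests whether the combination departs from the sum of both single-drug changes on the log2 scale, was -2.50 ± 0.68 with an adjusted p of 0.0141. The combination library with 0 counts bears on this size, since the term was -1.45 ± 0.45 (adjusted p = 0.0438) without it. With PF-06873600 the level in A549 was 3.59 ± 0.089 CPM, a log2 fold change of 0.08 ± 0.34 (adjusted p = 0.86). In SUM159 the direction was the opposite of that under the combination in A549. Untreated cells had 333 and 261 counts of APOBEC3B and treated cells 523 and 570, and the groups did not overlap in CPM. The mean rose from 18.2 ± 2.64 to 28.8 ± 2.56 CPM, a log2 fold change of 0.65 ± 0.10 (adjusted p = 5.03e-05).

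APOBEC3C rose in both lines, under every treatment except palbociclib alone. In A549 there were 579 and 589 counts without drug and 516 and 587 with palbociclib. It had 1046 and 1162 counts with indisulam, 1001 and 1110 with both drugs, and 1181 and 1474 with PF-06873600. In CPM the libraries of these 3 groups, at 71 to 91.1, all lay above the 4 untreated and palbociclib libraries, at 35.8 to 39.4. The log2 fold change was 0.92 ± 0.07 (SE) with indisulam (adjusted p = 6.43e-08), 0.86 ± 0.07 with both drugs (adjusted p = 4.06e-08) and 1.21 ± 0.07 with PF-06873600 (adjusted p = 1.55e-09). With palbociclib it was -0.09 ± 0.07 (adjusted p = 0.464). Adding palbociclib to indisulam gave -0.07 ± 0.06 (adjusted p = 0.426), adding indisulam to palbociclib gave 0.94 ± 0.07 (adjusted p = 1.96e-08), and the interaction term was 0.02 ± 0.10 (adjusted p = 0.907). Both groups given indisulam were high, with or without palbociclib. In SUM159 the untreated libraries had 771 and 709 APOBEC3C counts and the treated ones 1358 and 1559. Its mean rose from 45.4 ± 1.48 to 76.5 ± 4.01 CPM, a log2 fold change of 0.75 ± 0.06 (adjusted p = 6.56e-08).

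APOBEC3H was near the floor in untreated cells and rose in A549 under the same 3 treatments as APOBEC3C. Its counts in A549 were 3 and 5 without drug, 2 and 5 with palbociclib, 31 and 45 with indisulam, 37 and 45 with both drugs, and 16 and 17 with PF-06873600. The PF-06873600 libraries lay between the untreated and the indisulam libraries and overlapped neither. The mean level was 0.269 ± 0.0915 CPM in untreated cells, 2.56 ± 0.588 with indisulam, 2.76 ± 0.193 with both drugs and 1.14 ± 0.123 with PF-06873600. The log2 fold change against untreated cells was 3.21 ± 0.40 with indisulam (adjusted p = 1.44e-05), 3.32 ± 0.39 with both drugs (adjusted p = 3.37e-06) and 2.04 ± 0.47 with PF-06873600 (adjusted p = 0.00195). With palbociclib it was -0.20 ± 0.66 (adjusted p = 0.896), an error too wide to read a level from. The indisulam and combination levels did not differ beyond their spread (log2 fold change 0.11 ± 0.25, adjusted p = 0.752). Adding indisulam to palbociclib gave 3.52 ± 0.40 (adjusted p = 3.09e-06). Beside the A549 rises of APOBEC3C and APOBEC3H, the summed level of the 8 immune cell markers was 4.4 to 5.1 CPM in untreated cells and 5.43 to 5.86 with palbociclib. It was 11.3 to 12 with indisulam, 7.59 to 7.8 with both drugs and 7.66 to 8.22 with PF-06873600, and its part in these results was not tested. In SUM159 APOBEC3H was not tested, with 1 and 0 counts without drug and 6 and 3 after it. The ratio of summed counts was 7.66 there, with a counting interval of 1.06 to 336.

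APOBEC3F was not called against untreated cells in A549 and rose in SUM159. Its counts in the A549 groups were 78 and 89 without drug, 74 and 104 with palbociclib, 77 and 66 with indisulam, 99 and 103 with both drugs, and 61 and 95 with PF-06873600. Against untreated cells the log2 fold changes ran from -0.22 ± 0.18 (adjusted p = 0.339) with indisulam to 0.28 ± 0.17 (adjusted p = 0.159) with both drugs, and none was called. Against indisulam alone the combination was higher by 0.50 ± 0.17 (adjusted p = 0.029), a call that DESeq2 did not make (adjusted p = 0.123). It was also lost without either combination library (adjusted p = 0.128 without replicate 1 and 0.0772 without replicate 2) or without indisulam replicate 2 (adjusted p = 0.207). In SUM159 the untreated libraries had 70 and 68 counts and the treated ones 223 and 288. The mean rose from 4.24 ± 0.0264 to 13.3 ± 0.411 CPM, a log2 fold change of 1.65 ± 0.14 (adjusted p = 4.75e-08).

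APOBEC3G was found in SUM159 and was at or below the floor in all 10 A549 libraries, with 0 to 2 counts each. In SUM159 the untreated libraries had 65 and 58 counts and the treated ones 397 and 459. Its mean rose from 3.78 ± 0.203 to 22.5 ± 1.06 CPM, a log2 fold change of 2.57 ± 0.13 or 5.92-fold (adjusted p = 1.41e-10), the largest among the 4 members tested in that line. The summed level of the 8 immune cell markers was also higher with the drug in SUM159, at 22 to 23.8 CPM against 10.3 to 10.8 in untreated cells. Most of it came from PTPRC, the pan-leukocyte gene CD45, at 9.62 ± 0.387 CPM in untreated and 19.1 ± 1.71 CPM in treated cells. Its part in the result was not tested, and the 4 lymphoid markers named above were at 3 counts or less in these libraries.

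APOBEC3D stayed at or near the floor, with 0 to 4 counts in A549 libraries and 0 to 4 in SUM159 libraries. At this depth a difference between groups was not detectable. APOBEC3A, the neighbour that is strongly induced by interferon in myeloid cells, had at most 3 counts in any library. APOBEC1, APOBEC2 and APOBEC4 had at most 1 count.

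**Figure D3:**
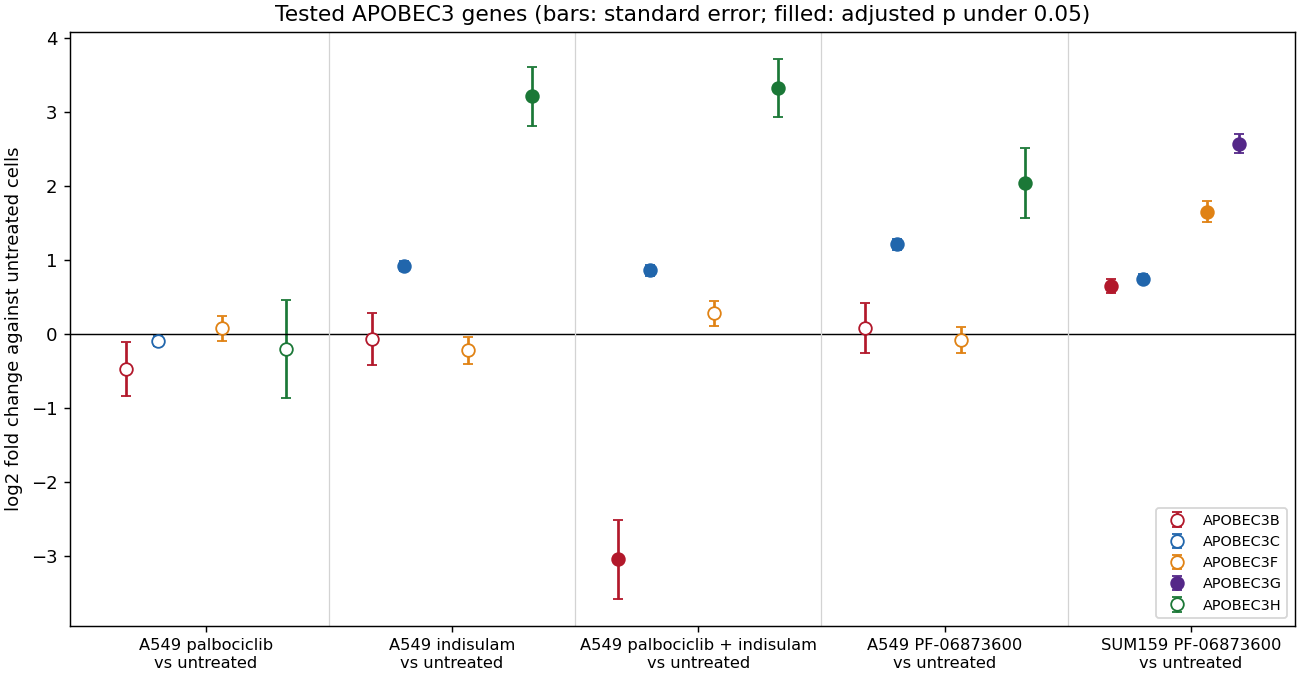
Log2 fold change against untreated cells of the same line (y axis) for the members tested in each of 5 treatments (x axis). Points are fitted changes, bars are SE and filled points have an adjusted p under 0.05; APOBEC3B lies at -3.04 under both drugs in A549, and all 4 points of SUM159 lie above 0.

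The counts of members called are set beside the share of all tested genes. With palbociclib alone 0 of 4 members were called, where 8.3% of genes were higher and 7.4% lower. With indisulam 2 of 4 were higher and 0 lower, against 28% and 17.5% of genes. With both drugs 2 of 4 were higher and 1 lower, against 35.1% and 30%. Against palbociclib alone the combination had 2 members higher and 1 lower (33.5% and 26.9% of genes), and against indisulam alone 1 higher and 1 lower (22% and 23.9%). The interaction term called 0 higher and 1 lower, against 10.7% and 14.5% of genes. With PF-06873600, 2 of 4 members were higher and 0 lower in A549 (28.5% and 27.8% of genes), and 4 of 4 were higher in SUM159 (38.1% higher and 35.6% lower). These treatments changed a large part of all genes, and with 4 members a share of 2 is close to the background. The A549 counts of higher members with indisulam, both drugs and PF-06873600 include APOBEC3H, which was tested only because it was high in those groups. With TMM normalization the higher share of the indisulam calls over all genes moved from 61.6% to 50.4%, and the calls of the members stayed.

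The lines differed in which members they expressed without treatment. In a model of all 14 libraries, 17279 genes were tested, among them 5 members. In untreated SUM159 against untreated A549 cells, 3 members were higher and 2 lower, beside 41.9% and 36.8% of genes. Among the 5, APOBEC3H passed the filter on low counts only through treated A549 libraries, and APOBEC3G only through SUM159 libraries. APOBEC3B was 5.35-fold higher in SUM159 (log2 fold change 2.42 ± 0.23, adjusted p = 1.21e-08). APOBEC3G had 123 counts in both untreated SUM159 libraries against 1 in A549, a ratio of 112 with a counting interval of 19.8 to 4471. APOBEC3H went the other way, with 8 counts in A549 against 1 in SUM159, a ratio of 8.76 with a counting interval of 1.17 to 389 (edgeR, adjusted p = 0.0207). APOBEC3C differed by 0.21 ± 0.07 (adjusted p = 0.00969), a call lost with TMM normalization (0.10, adjusted p = 0.201). APOBEC3F differed by -0.41 ± 0.17 (adjusted p = 0.0356). DESeq2 called none of these 3 genes, with adjusted p of 0.06 for APOBEC3H, 0.253 for APOBEC3C and 0.0624 for APOBEC3F. Leaving out 1 library ended some of these calls. Without SUM159 untreated replicate 1 the adjusted p was 0.0711 for APOBEC3C and 0.1 for APOBEC3F. Without SUM159 untreated replicate 2 it was 0.0877 for APOBEC3F and 0.123 for APOBEC3H, and without A549 untreated replicate 2 it was 0.173 and 0.109. Line, culture medium and any preparation of the libraries by line cannot be told apart in this comparison.

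The response to PF-06873600 was also compared between the lines, which had the same dose and time. Of 5 members tested, 1 had a larger and 1 a smaller log2 fold change in SUM159, against 25.8% and 27.2% of genes. APOBEC3F rose more in SUM159, by 1.73 ± 0.22 on the log2 scale (adjusted p = 2.09e-06), and APOBEC3C rose less, by -0.46 ± 0.09 (adjusted p = 0.000339). The difference for APOBEC3B was 0.58 ± 0.35 and was not called (adjusted p = 0.18), although its change was called in SUM159 and not in A549. For APOBEC3G (2.55 ± 2.18, adjusted p = 0.352) and APOBEC3H (0.62 ± 1.06, adjusted p = 0.673) the errors were too wide, since each was near 0 counts in 1 line.

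APOBEC3B and the cell cycle genes were set side by side, because the DREAM complex has been tied to both. Of 18 cell cycle genes, 18 fell with both drugs in A549, with a median log2 fold change of -2.15 against 0.05 over all genes tested. TOP2A, which untangles replicated DNA, fell by 2.93 ± 0.07 on the log2 scale, and BIRC5, a regulator of mitosis and apoptosis, fell by 2.80 ± 0.10. In SUM159 treated with PF-06873600, 17 of 18 fell, with a median of -1.41 against 0.02, among them PLK1 (-2.75 ± 0.06) and CDC20 (-2.38 ± 0.06), which drive mitosis. APOBEC3B was lower together with the cell cycle genes in A549 under both drugs and higher while they were lower in SUM159. These comparisons differ in both line and drug, and a part of the DREAM complex in them was not tested. In A549 with PF-06873600, 11 cell cycle genes were lower and 6 higher (median -0.42), and with palbociclib alone 7 were lower and 4 higher (median -0.20). Over all genes tested, 30% were lower and 35.1% higher with both drugs, and 35.6% and 38.1% in SUM159. With PF-06873600 in A549 these shares were 27.8% and 28.5%, and with palbociclib 7.4% and 8.3%. Of 13 genes listed as subunits or partners of the DREAM and MMB complexes, 10 were lower and 0 higher with both drugs (median -0.46). FOXM1 (-2.39 ± 0.08) and MYBL2 (-2.35 ± 0.09), activators of mitotic genes, fell most. With PF-06873600 in A549, 3 were lower and 2 higher (median -0.06). In SUM159, 8 were lower and 2 higher (median -0.36), with FOXM1 at -1.19 ± 0.05 and the E2F partner TFDP2 at 1.40 ± 0.08.

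Uracil in DNA is the product of APOBEC3 enzymes. Of the genes listed for uracil and abasic site repair, only some remove uracil themselves. Among all 13 genes on this list, 8 fell and 2 rose with both drugs in A549 (median -0.33). In SUM159 with PF-06873600, 10 fell and 0 rose (median -0.51), and in A549 with PF-06873600, 3 fell and 6 rose (median 0.17). Over all genes the shares lower and higher were 30% and 35.1%, 35.6% and 38.1%, and 27.8% and 28.5% in these comparisons, with medians of 0.05, 0.02 and -0.01. UNG, the main uracil glycosylase, was 61.1 ± 1.16 CPM in untreated A549 cells, 48.4 ± 0.64 with both drugs and 107 ± 1.19 with PF-06873600, with log2 fold changes of -0.34 ± 0.06 (adjusted p = 0.000273) and 0.81 ± 0.06 (adjusted p = 3.5e-08). In SUM159 it went from 46.6 ± 2.27 to 36.4 ± 0.34 CPM (-0.36 ± 0.07, adjusted p = 0.000277). The ligase LIG3 fell by 0.98 ± 0.08 with both drugs in A549 and by 1.56 ± 0.07 in SUM159. FEN1, a flap endonuclease, fell by 1.30 ± 0.08 with both drugs in A549 and rose by 1.01 ± 0.07 with PF-06873600 there. DUT, which keeps uracil out of the nucleotide pool, fell by 1.02 ± 0.07 in SUM159 with PF-06873600.

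Interferon-stimulated genes and NF-kB genes were counted in the same groups, and a part of either pathway in the changes of the members was not tested. Of 20 interferon response genes, 14 rose and 2 fell with both drugs in A549 (median 1.16), 12 rose and 1 fell with PF-06873600 (median 0.77), and 9 rose and 1 fell with indisulam (median 0.32). With palbociclib alone, 9 rose and 0 fell (median 0.46). In SUM159, 11 rose and 5 fell (median 0.59). Over all genes tested the medians lay between -0.01 and 0.08. IFI27 rose by 3.98 ± 0.27 on the log2 scale with both drugs in A549 and by 2.37 ± 0.11 in SUM159, and IFI6 by 2.04 ± 0.17 and 2.03 ± 0.10. Of 13 NF-kB pathway genes, 9 rose and 0 fell with indisulam, 7 rose and 1 fell with both drugs, 6 rose and 5 fell with PF-06873600 in A549, and 6 rose and 3 fell in SUM159. With palbociclib alone 1 rose and 0 fell. The shares of all genes higher and lower were 28% and 17.5% with indisulam, 35.1% and 30% with both drugs, 28.5% and 27.8% with PF-06873600 in A549, 38.1% and 35.6% in SUM159, and 8.3% and 7.4% with palbociclib. TNFAIP3, a feedback inhibitor of NF-kB, rose by 2.92 ± 0.15 with both drugs in A549 and by 3.08 ± 0.07 in SUM159, NFKB2 rose by 1.01 ± 0.10 in the former and TRAF1, an adaptor of TNF receptors, by 3.60 ± 0.07 in the latter.

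Other restriction factors limit viruses inside the cell, as the APOBEC3 enzymes do. With both drugs in A549, 4 of 11 tested rose and 4 fell, close to the 35.1% and 30% of all genes, with the retroviral factor TRIM22 at 4.63 ± 0.15 and the exonuclease ISG20 at -1.66 ± 0.14. In SUM159, 8 of 13 rose and 3 fell (38.1% and 35.6% of all genes), with MX2 at 2.00 ± 0.14 and TRIM22 at 1.94 ± 0.11. TRIM22 was also among the 3 genes whose level was most like that of APOBEC3C over the 14 libraries.

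The genes around the cluster were examined to see whether the members moved with their neighbours. Of 6 neighbours, 4 rose and 1 fell with both drugs in A549 (35.1% and 30% of all genes), with a median log2 fold change of 0.73 against 0.05 over all genes. In SUM159 with PF-06873600, 5 rose and 1 fell (38.1% and 35.6% of all genes), with a median of 1.09 against 0.02. CBX6, a Polycomb protein gene before the cluster, was 93.8 ± 5.52 CPM in untreated A549 cells and 134 ± 3.03 with both drugs (log2 fold change 0.51 ± 0.06, adjusted p = 2.9e-06). CBX7, a Polycomb protein gene just after APOBEC3H, was 8.62 ± 0.499 and 6.97 ± 0.525 CPM (-0.30 ± 0.15, adjusted p = 0.091), and it fell with PF-06873600 in A549 by 0.94 ± 0.16 (adjusted p = 0.000195). In SUM159 CBX7 rose by 0.97 ± 0.18 (adjusted p = 0.000238). NPTXR, which encodes a neuronal pentraxin receptor, rose by 3.25 ± 0.08 with both drugs in A549 and by 4.86 ± 0.15 in SUM159. SYNGR1, a synaptic vesicle gene, rose by 0.94 ± 0.10 in A549, and the ribosomal protein gene RPL3 fell by 0.39 ± 0.07 in SUM159. With both drugs in A549, APOBEC3B was lower while APOBEC3C, the next tested gene, was higher, so the cluster did not move as 1 block.

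**Figure D4:**
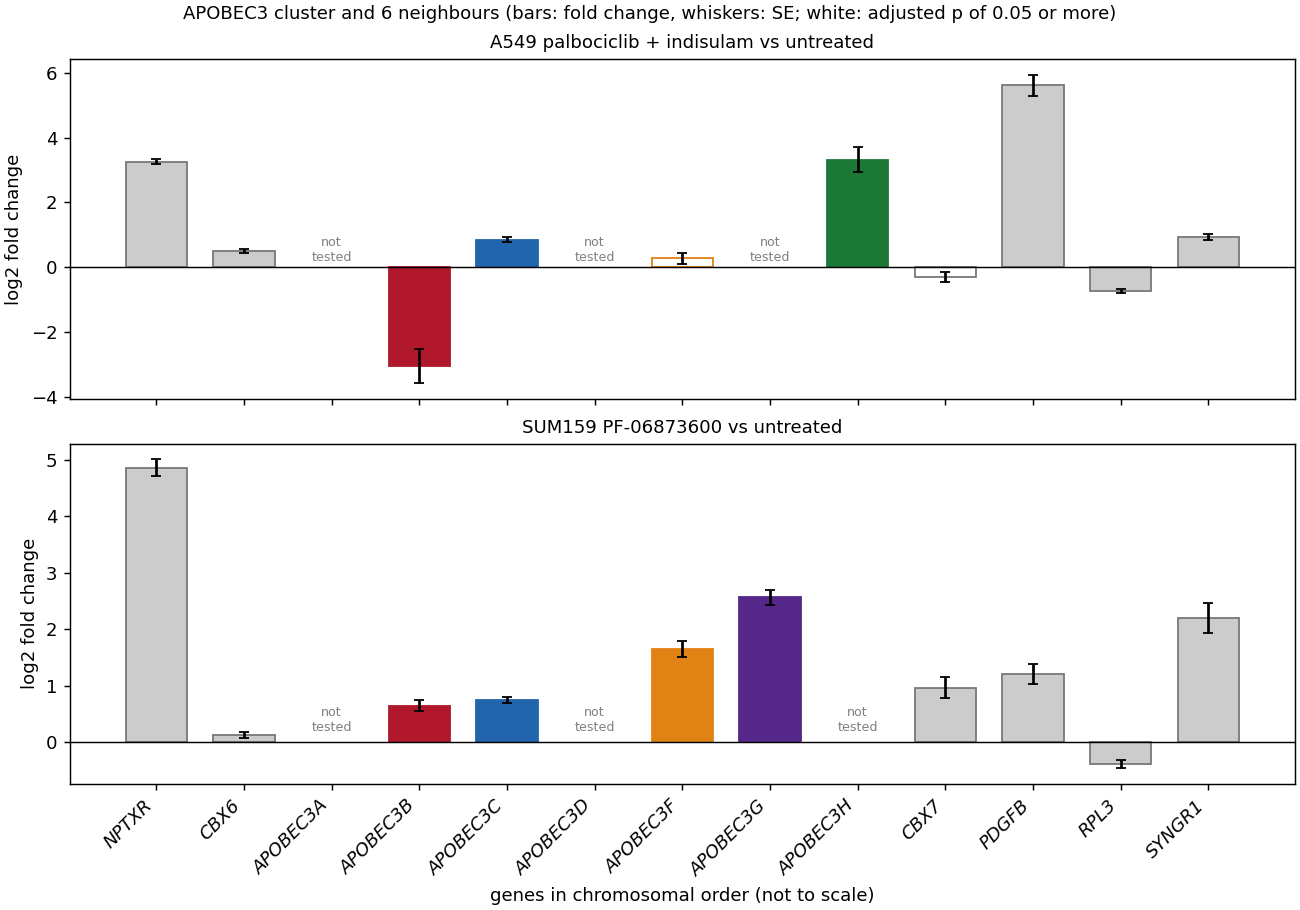
Log2 fold change (y axis) of the APOBEC3 genes (coloured) and 6 neighbours (grey) in chromosomal order (x axis, not to scale) for A549 cells given both drugs and SUM159 cells given PF-06873600. Bars are fitted changes, whiskers SE, and white bars have an adjusted p of 0.05 or more; APOBEC3B points down in the upper panel between genes that point up.

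Likeness between members over the 14 libraries varied from pair to pair. The Pearson correlation of log2(CPM + 0.5), given as a description over libraries that share a line or a treatment, was -0.00871 between APOBEC3B and APOBEC3C. It was 0.857 between APOBEC3B and APOBEC3G, both high in SUM159, 0.643 between APOBEC3F and APOBEC3G, 0.64 between APOBEC3C and APOBEC3H, and -0.671 between APOBEC3B and APOBEC3H. Within the 10 A549 libraries, where the line is the same, it was 0.812 between APOBEC3C and APOBEC3H, -0.131 between APOBEC3B and APOBEC3C, and -0.625 between APOBEC3B and APOBEC3F. Over the 14 libraries the 3 genes most like APOBEC3B were MAP3K5 (0.974), NRGN (0.972) and UGGT1 (0.972). For APOBEC3C they were VAX2 (0.961), SERPINB3 (0.944) and TRIM22 (0.92), and for APOBEC3F ORMDL3 (0.97), ARMCX3 (0.962) and PCYOX1 (0.955). For APOBEC3G they were TSHZ2 (0.999), FPR2 (0.999) and ADIRF (0.998), and for APOBEC3H ADGRB1 (0.977), GAS7 (0.972) and LINC02086 (0.971). Within A549 the closest gene was APOC1 for APOBEC3B (0.973), HEBP1 for APOBEC3F (0.926) and FOSB for APOBEC3H (0.993). For APOBEC3C it was BIRC3 (0.992), with PPM1D (0.988) and KANK2 (0.987) close behind.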

How the data were processed

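RNA sequencing of untreated and drug-treated A549 and SUM159 cells was analysed, 14 libraries in 7 groups of 2. The authors prepared strand-specific poly(A) libraries, sequenced single-end reads of 65 bases, aligned them to hg38 and deposited, per library, whole read counts on 60683 Ensembl identifiers, without normalization. The submitters' processing notes name HISAT2 2.2.1 and HTSeq. The annotation release and the strand setting are not given in the sources used here. GENCODE 44 gave symbols for 60370 identifiers.

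Genes that passed filterByExpr were fitted with edgeR 4.0.16 (R 4.3.3) after scaling to the total count, the study's size factor, with 10 A549, 4 SUM159 or all 14 libraries per model. SE is the size of the log2 fold change over the root of F. The scripts were tested on simulated data. Alternatives were TMM, DESeq2 1.42.0, no filter, a filter at a mean of 50 counts, a model of the compared groups alone, a replicate block and each library left out.

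The members and gene lists were chosen with earlier results of these data known. Named are the members, APOBEC3A, UNG, CBX6 and CBX7. For both drugs in A549 and PF-06873600 in SUM159, so are the 2 called genes of each list with the largest absolute log2 fold change and at least 10 CPM in the higher group. The 3 genes most correlated with each member over 14 libraries and markers that check the labels are named too, and genes outside this rule (APOBEC1, APOBEC2, APOBEC4, PTPRC and the closest genes within A549) were named after their values were seen. Some items are not reported here.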

Additional observations from a re-analysis of the deposited data

Results flagged for a closer look

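The change of APOBEC3B under palbociclib and indisulam together differed from the sum of its changes under each drug, with an interaction term of -2.50 ± 0.68 on the log2 scale (edgeR, adjusted p = 0.0141), and both combination libraries lay below all other A549 libraries. The response to PF-06873600 differed between the lines for APOBEC3C, by -0.46 ± 0.09 (SUM159 minus A549, edgeR, adjusted p = 0.000339), with a rise in both treated libraries of either line. It differed for APOBEC3F by 1.73 ± 0.22 (edgeR, adjusted p = 2.09e-06), with both treated SUM159 libraries above the untreated ones and overlapping groups in A549.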

How the results depend on the processing

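Over the tested members and 10 comparisons, settings other than leaving out a library gave 241 values, of which 233 kept direction and call, 8 lost the call and 0 changed direction. Leaving out a library gave 204 values, of which 181 kept both, 9 lost the call and 14 changed direction.

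With a mean of at least 50 counts APOBEC3B and APOBEC3H were no longer tested in A549. The members called were then 1 for indisulam, both drugs and PF-06873600 against untreated A549 cells, 1 for the combination against either drug and 0 for the interaction. With DESeq2 the members called were 1 for the combination against indisulam and 2 between the untreated lines, and with only the compared groups 3 between the lines. Over all genes, palbociclib against untreated A549 cells gave 2478 calls, 1584 with DESeq2 and 962 with only the compared groups. The cause was not tested.

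Leaving out 1 library gave 1310 to 3350 calls for palbociclib (1494 without palbociclib replicate 1 and 1310 without replicate 2), 1 to 2 members for the combination against indisulam and 3 to 5 members between the lines. Values that changed direction were uncalled: with palbociclib, APOBEC3F from -0.03 to 0.18 and APOBEC3H from -0.82 to 0.19; with indisulam, APOBEC3B from -0.30 to 0.22; with PF-06873600 in A549, APOBEC3B from -0.16 to 0.36 and APOBEC3F from -0.27 to 0.06. The same held for APOBEC3H in the combination against indisulam (-0.10 to 0.37), for the interaction terms of APOBEC3C (-0.03 to 0.07) and APOBEC3H (-0.08 to 0.93), and for the difference between the lines in the APOBEC3H response to PF-06873600 (-0.20 to 2.89). A lone library left in a group was assumed to vary like the other groups.

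The replicate block changed no call of a member: APOBEC3B under both drugs stayed at -3.04 (edgeR, adjusted p = 0.000279). The labels do not say that same-numbered libraries were handled together, and deviations of same-numbered libraries correlated at -0.274 to 0.23. The palbociclib comparison had 2337 calls with the block and 3023 with crossed numbers, an alternative added after seeing the data, and the untreated lines had 13523 and 13575.

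Members below about 10 counts per library, APOBEC3D throughout, APOBEC3G in A549 and APOBEC3H in SUM159, were beyond the depth of these libraries. APOBEC3H also had only 2 to 5 counts in untreated and palbociclib A549 libraries, so the size of its rises rests on a base near the floor. APOBEC3B had 12 and 0 counts with both drugs, so the size of its fall is limited in the same way.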
